A study of Mus musculus with 5 samples.

Results

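Chemokine receptors are the cell-surface proteins that let blood cells follow gradients of small secreted chemokines. Expression of 9 of them (Ccr1, Ccr2, Ccr3, Ccr6, Ccr7, Cxcr2, Cxcr3, Cxcr4 and Cxcr5) was read on 5 Affymetrix mouse arrays labelled as B220+ bone marrow cells. The receptors were taken by gene symbol, with every probe set that the platform annotation gives to a single one of these symbols. This gave 13 of the 45037 non-control probe sets. Ccr2 had 4 probe sets, Ccr1 had 2 and each of the other receptors had 1.

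By the labels, 3 arrays came from IKKαK44A/K44A mice (called KA/KA), in which a knock-in leaves IKKα without kinase activity on both alleles, and 2 from wild-type littermates (WT). All mice were 4 weeks old and of the FVB background. Marrow of tibias and femurs was depleted of red cells, and cells with B220, a CD45 form of developing B cells, were enriched on magnetic beads. No treatment was given. Whether RNA was pooled over animals is not stated, so p-values measure only the spread between these arrays, which may be technical. Values are log2(signal + 16), on which a signal of 0 reads 4.

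The arrays split in a way that the genotypes do not explain. A median log2 value over the 24 controls for spiked-in bacterial poly-A RNA was 13.54 on KA/KA 1 and 12.84 on WT 1. The same median was 7.25 on KA/KA 2, 8.05 on KA/KA 3 and 5.97 on WT 2. A border of 10 on this scale defined 2 sets, which are not groups of the study. KA/KA 1 and WT 1 are called the marrow-like pair: all 9 measured B-lineage markers were higher there by limma's test. KA/KA 2, KA/KA 3 and WT 2 are called lung-like: all 9 measured lung epithelium markers were higher there. Rag1, the recombinase of antigen receptor genes, read 12.80 and 12.79 in the marrow-like pair against 4.09, 4.09 and 4.10 on the lung-like arrays, so a defining marker of early B cells, the bulk of B220+ marrow, was near the floor of the scale on 3 arrays. Sftpc, the surfactant protein of alveolar cells, read 6.53 and 5.97 in the marrow-like pair against 14.999, 14.99 and 14.04 on the lung-like arrays. The transcripts of KA/KA 2, KA/KA 3 and WT 2 thus go against their label of B220+ marrow cells, and the values of KA/KA against WT on these arrays cannot be taken as values of such cells. A comparison of the sets is therefore one of unlike samples, and spike-in signal and tissue content cannot be told apart in it.

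The receptors couple to inhibitory G proteins and steer cells into and within tissues. Cxcr4 holds blood stem cells and early B cells in the marrow near cells that secrete Cxcl12. Cxcr5 draws mature B cells into follicles, Ccr7 brings lymphocytes and dendritic cells into lymph nodes, and Ccr6 acts in B cells, T helper cells and dendritic cells that respond to Ccl20. Ccr2 releases monocytes from the marrow, Ccr1 acts on monocytes and neutrophils, Cxcr2 on neutrophils, Ccr3 on eosinophils, and Cxcr3 on activated T cells and natural killer cells. IKKα is the kinase of the alternative NF-κB pathway, which in stromal cells of lymphoid organs turns on ligands of Cxcr4, Cxcr5 and Ccr7.

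Ccr1, Ccr3 and Ccr2 lie in this order in one gene cluster on chromosome 9, with Ccr1l1 between Ccr1 and Ccr3. Cxcr5 is elsewhere on chromosome 9, Cxcr2 and Cxcr4 are on chromosome 1, Ccr6 on 17, Ccr7 on 11 and Cxcr3 on X. RefSeq promoters (GRCm38.p6) were held for 7 of the 9 genes. The 250 bases before the start of the 3 clustered genes are shown because Ccr3 and Ccr2 passed the test between the sets and Ccr1 did not. The 3 genes were not tested against each other. Those of Cxcr4 are shown for comparison. Capitals mark matches, on either strand, to the GC box GGGCGG, the TATA box TATAAA, the purine-rich Ets core GAGGAA or a κB-like pattern (3 G, any 5 letters, then 2 C).
Ccr1, chr9:123968693-123968942, minus strand: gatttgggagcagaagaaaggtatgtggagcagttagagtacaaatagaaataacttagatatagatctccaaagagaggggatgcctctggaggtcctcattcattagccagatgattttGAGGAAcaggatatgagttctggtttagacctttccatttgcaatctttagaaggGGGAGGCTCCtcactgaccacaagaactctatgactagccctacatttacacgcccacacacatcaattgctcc
Ccr3, chr9:124021721-124021970, plus strand: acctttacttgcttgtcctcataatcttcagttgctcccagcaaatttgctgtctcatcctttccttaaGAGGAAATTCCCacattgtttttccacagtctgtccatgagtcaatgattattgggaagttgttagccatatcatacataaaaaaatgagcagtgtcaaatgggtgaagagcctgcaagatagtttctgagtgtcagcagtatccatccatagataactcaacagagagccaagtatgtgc
Ccr2, chr9:124101933-124102182, plus strand: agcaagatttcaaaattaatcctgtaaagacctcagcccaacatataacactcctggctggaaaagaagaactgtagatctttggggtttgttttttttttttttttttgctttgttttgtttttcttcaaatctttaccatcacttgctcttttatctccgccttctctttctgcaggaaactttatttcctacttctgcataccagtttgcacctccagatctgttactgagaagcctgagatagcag
Cxcr4, chr1:128592300-128592549, minus strand: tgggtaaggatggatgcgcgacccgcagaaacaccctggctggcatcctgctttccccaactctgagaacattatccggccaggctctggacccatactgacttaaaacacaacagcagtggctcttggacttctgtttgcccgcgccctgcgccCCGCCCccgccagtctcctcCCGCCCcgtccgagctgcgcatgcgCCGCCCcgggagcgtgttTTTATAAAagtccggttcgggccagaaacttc
The Cxcr4 window held 3 GC boxes and 2 overlapping TATA box matches, and no match to the other patterns. Ccr1 and Ccr3 each held 1 Ets core and 1 κB-like match, which share 4 bases in Ccr3, and the Ccr2 window held none of the 4 patterns. Of 32851 mouse promoter windows of the same length, 32.7% held the GC box, 12.4% the TATA box, 23.3% the Ets core and 45.8% the κB-like pattern, so such matches are common and describe letters only.

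The first comparison set the marrow-like pair against the lung-like arrays. Taking for each gene the probe set with the highest mean, 8 of the 9 receptors had a higher mean in the marrow-like pair, where 43.3% of all genes did, and 4 passed limma's test: Cxcr4, Cxcr5, Ccr2 and Ccr3, all higher. None was lower. Counted over probe sets, 5 of 13 passed, all higher in the marrow-like pair, where 8.0% of all probe sets passed in that direction, 11.3% in the other and 19.3% in either. By 1 probe set a gene, 8.38% of 18193 genes passed as higher and 15.1% as lower, 23.5% in all. The median difference was 1.51 log2 units over the 9 receptors and -0.14 over all genes. Some cell type markers were higher in the marrow-like pair as well, and others were not. Of 7 mature B markers 6 passed as higher in the marrow-like pair (median 2.60, sums of 33570 and 40239 against 2832 to 6634 on the lung-like arrays), as did 5 of 9 neutrophil markers (median 3.69, 116027 and 175736 against 6340 to 73558). Of 4 eosinophil markers Prg2 (4.54 ± 0.45) and Epx (2.29 ± 0.46) passed as higher, and Siglecf as lower (-2.32 ± 0.30). Of 9 monocyte and macrophage markers 0 passed, 8 T cell markers had 1 lower, 7 dendritic cell markers 4 lower and 1 higher, and 6 NK cell markers 2 higher. The part of these cells in the receptor differences was not tested. These are bulk samples, in which fewer cells of a type and less RNA per cell cannot be told apart.

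Among the receptors of B cells and other lymphocytes, Cxcr4 read 13.03 and 13.44 in the marrow-like pair against 11.57, 11.71 and 10.73 on the lung-like arrays. The sets did not overlap, and the lowest value was that of WT 2. The difference was 1.96 ± 0.37 log2 units (± SE, 2 against 3 arrays, limma adjusted p = 0.0166). Cxcr5, the follicle-homing receptor, read 10.03 and 10.07 in the marrow-like pair against 7.38, 8.75 and 7.28 on the lung-like arrays. The marrow-like pair was almost level and the 3 others were all lower, with KA/KA 3 nearest. The difference was 2.32 ± 0.47 (limma adjusted p = 0.0199).

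Ccr7 read 10.07 and 10.59 in the marrow-like pair against 8.10, 10.42 and 8.15 on the lung-like arrays. KA/KA 3 thus reached the marrow-like values while KA/KA 2 and WT 2 lay about equally far below, and the difference of 1.51 ± 0.73 did not pass (limma adjusted p = 0.207). Without KA/KA 3 it was 2.21 and passed (adjusted p = 0.00331), without KA/KA 1 it was 2.44, and without WT 1 or without WT 2 it was 0.81. Ccr6 read 9.28 and 9.65 in the marrow-like pair against 7.51, 8.74 and 7.99 on the lung-like arrays. Its values did not overlap between the sets, but the difference of 1.37 ± 0.42 missed the threshold (limma adjusted p = 0.0713). It passed when arrays were centred on their medians (1.73), when dim probe sets were left out, when genotype was left out of the model (1.39) and without KA/KA 3 (1.72).

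The monocyte receptor Ccr2 was read by 4 probe sets that disagreed. The probe set of highest mean (1421186_at) gave 9.57 and 9.82 in the marrow-like pair against 7.80, 7.88 and 7.60 on the lung-like arrays. Values within each set lay close together, and the difference of 1.94 ± 0.28 had the smallest adjusted p of the 13 probe sets (0.00649, limma). Probe set 1421187_at gave 8.17 and 9.66 against 6.47, 6.17 and 6.02, a difference of 2.62 ± 0.49 (limma adjusted p = 0.0154). Probe set 1421188_at gave 8.59 and 8.95 against 7.52, 8.34 and 8.33, with 0.64 ± 0.34 (adjusted p = 0.250). The last, 1460067_at, gave 6.19 and 7.59 against 5.79, 7.31 and 7.12, overlapped between the sets and had a difference of -0.0051 ± 0.56 (adjusted p = 0.997). Which transcripts the Ccr2 probe sets read was not analysed here, so the size of its difference is uncertain.

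Ccr1, of the same gene cluster as Ccr3, had a difference between the sets that was far smaller than its error. It read 8.86 and 9.69 in the marrow-like pair against 11.11, 10.11 and 7.69 on the lung-like arrays. The lung-like arrays lay on both sides of the marrow-like pair, with the KA/KA arrays above it and WT 2 below. The difference was -0.15 ± 0.82 (limma adjusted p = 0.927), and its sign turned under median centring (0.21). The other Ccr1 probe set had the same arrangement, with 6.53 and 7.20 against 7.88, 7.88 and 5.42 (difference -0.013 ± 0.71), and it too turned sign under median centring (0.34), quantile normalization (0.30) and an added constant of 1 (0.094).

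Of the granulocyte receptors, Ccr3 read 9.35 and 8.90 in the marrow-like pair against 7.57, 7.87 and 4.65 on the lung-like arrays. All 3 lung-like values were lower, and WT 2, at the 10.4th percentile of its array, was near the floor of the scale. The difference was 2.75 ± 0.61 (limma adjusted p = 0.0263), and with genotype left out of the model it was 2.43 and did not pass. Without KA/KA 1 it was 4.25, and without WT 1 or without WT 2 it was 1.63, and it passed in none of these. Cxcr2, the neutrophil receptor, read 8.16 and 8.54 in the marrow-like pair against 7.14, 8.42 and 5.74 on the lung-like arrays. KA/KA 3 lay inside the marrow-like range and WT 2 far below it, and the difference of 1.42 ± 0.66 did not pass (limma adjusted p = 0.195). Without KA/KA 3 it was 1.91 (adjusted p = 0.0417), without KA/KA 1 it was 2.80, and without WT 1 or without WT 2 it was 0.38.

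Cxcr3, a receptor of activated T cells and natural killer cells, read 9.06 and 9.05 in the marrow-like pair against 8.30, 9.33 and 8.18 on the lung-like arrays. The value of KA/KA 3 exceeded the pair, and the difference was 0.51 ± 0.39 (limma adjusted p = 0.414). In all, 7 of 13 probe sets had both marrow-like values above all lung-like values and 0 had both below. Over all probe sets 24.2% were arranged in the first way and 28.6% in the second.

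These calls rested on few arrays. With genotype in the model, leaving out WT 1 or WT 2 gives the same difference, KA/KA 1 minus the mean of KA/KA 2 and KA/KA 3. Leaving out KA/KA 1 gives WT 1 minus WT 2. Without WT 1 or without WT 2, 0 of the 13 probe sets passed (7 each at an unadjusted p under 0.05). Without KA/KA 1 only Cxcr4 passed (difference 2.71, adjusted p = 0.0489), without KA/KA 2 the same 5 passed, and without KA/KA 3 there were 8. Whichever array was left out, 10 of the 13 probe sets kept the sign of their difference between sets. The others were both Ccr1 probe sets (-1.75 to 1.99 and -1.35 to 1.77) and Ccr2 1460067_at (-0.36 to 0.47). With 3 against 2 arrays an exact permutation test has 10 splits and cannot go below p = 0.1, so it was not run.

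**Figure D1:**
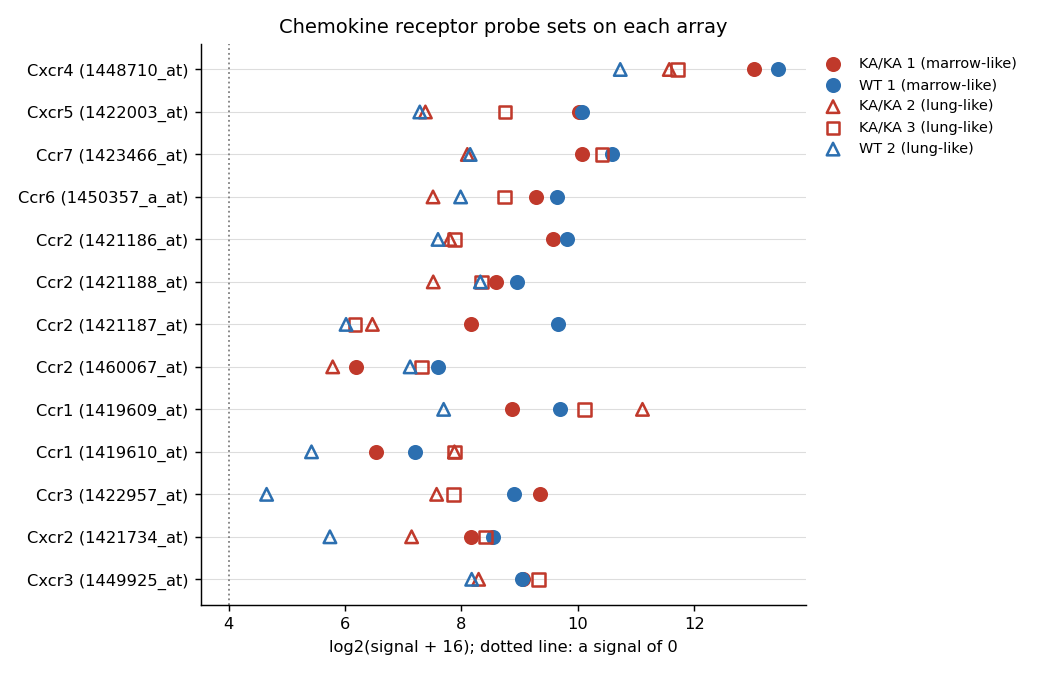
Value of each of the 13 chemokine receptor probe sets on each array, as log2(signal + 16); filled points are the marrow-like pair, open points the lung-like arrays, red KA/KA and blue WT. Cxcr4, Cxcr5 and Ccr2 (1421186_at) separate the sets, whereas the 2 Ccr1 probe sets have both lung-like KA/KA arrays above and WT 2 below the marrow-like pair.

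**Figure D2:**
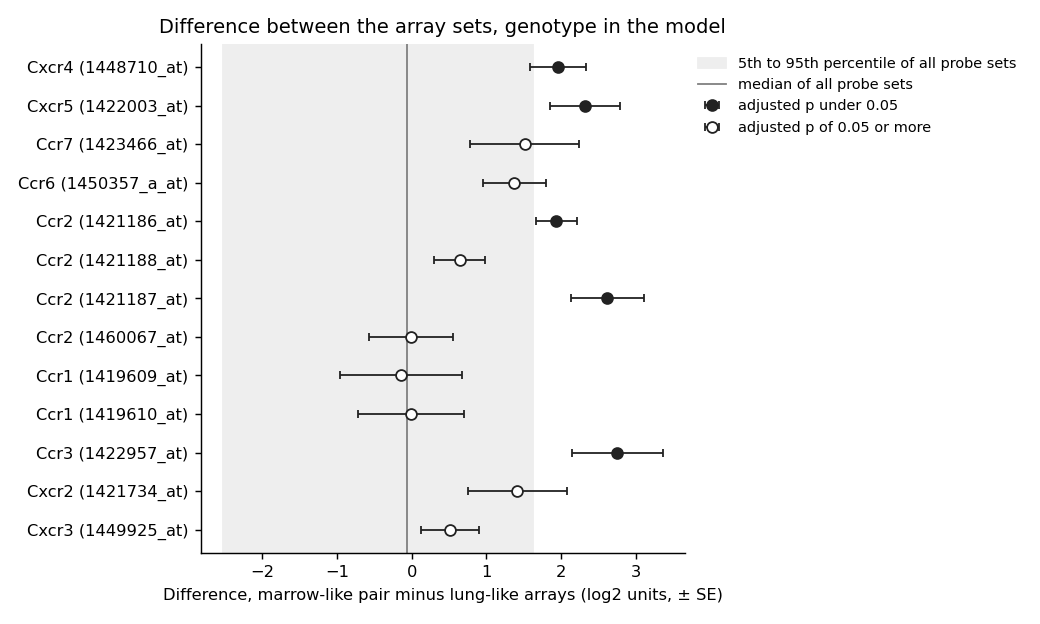
Difference of each probe set between the marrow-like pair and the lung-like arrays, in log2 units with its standard error, from limma with genotype in the model; the grey band holds the 5th to 95th percentile of all 45037 probe sets (-2.53 to 1.63). Filled points passed the test: 5 probe sets of Cxcr4, Cxcr5, Ccr2 and Ccr3, all to the right of the band.

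Inside the marrow-like pair, KA/KA 1 was set against WT 1. With 1 array a genotype there is no replicate check here and no test was made. By 1 probe set a gene, 7 of 9 receptors read lower on KA/KA 1, where 45.7% of all genes did, and 11 of 13 probe sets did, where 48.2% of all probe sets read lower. Differences were small for most: the median was -0.37 over the 9 receptors and 0.053 over all genes. The 5th to 95th percentile of all probe sets ran from -0.93 to 1.05, and 11 of the 13 receptor probe sets lay inside that range.

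Both probe sets outside it read Ccr2. Probe set 1421187_at had a difference of -1.48 log2 units (KA/KA 1 minus WT 1) and 1460067_at had -1.40, against 4.08% of all probe sets at -1 or under. The probe sets 1421186_at and 1421188_at gave -0.25 and -0.36, so the 4 probe sets shared a direction and not a size. Ccr1 gave -0.82 and, by its other probe set, -0.67. Of 9 monocyte and macrophage markers 8 were higher on KA/KA 1 (median 0.17), while their summed signal was 53052.5 on KA/KA 1 against 57678 on WT 1. Of the lymphoid receptors, Cxcr5 was close to WT 1 at -0.046. Ccr6 at -0.37, Cxcr4 at -0.41 and Ccr7 at -0.52 exceeded in size the median absolute difference of all probe sets, 0.35. Beside them, 6 of 7 mature B markers were lower on KA/KA 1 (median -0.28) and 5 of 9 B-lineage markers (median -0.020), as were 5 of 8 T cell, 5 of 6 NK cell and 2 of 7 dendritic cell markers. Their part in the result was not tested.

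Cxcr2 gave -0.38 on KA/KA 1, a size like that of Ccr6 and Cxcr4. The median absolute difference of all probe sets in this pair was 0.35. All 9 measured neutrophil markers read lower on KA/KA 1 (median -0.60), with a summed signal of 116027 against 175736 on WT 1. Their part in the result was not tested. Ccr3 was the receptor with the highest difference in this pair, at 0.45, and Cxcr3 was level at 0.010. The eosinophil granule genes Prg2 and Epx, whose products are toxic proteins of eosinophils, were 2.75 and 2.76 higher on KA/KA 1, and the summed signal of 4 eosinophil markers was 6301 on KA/KA 1 against 1074 on WT 1. Siglecf, an eosinophil surface protein that lung macrophages also carry, was not higher (-0.24), and the part of eosinophils in the Ccr3 difference was not tested.

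Inside the lung-like arrays, KA/KA 2 and KA/KA 3 were set against WT 2. By 1 probe set a gene, all 9 receptors had a KA/KA mean above WT 2, where 47.0% of all genes did, with a median difference of 0.91 log2 units against -0.036 over all genes. Both KA/KA arrays lay above WT 2 for 9 of 13 probe sets and both below for 0, where 32.0% and 35.6% of all probe sets did. None passed limma's test, with 0.0% of all 45037 probe sets called and a smallest adjusted p of 0.886. At an unadjusted p under 0.05 there were 5 receptor probe sets and 2482 in all. With WT 2 as the lone WT array, its own spread was assumed to be that of the KA/KA arrays.

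The myeloid receptors differed most. Ccr3 read 7.57 on KA/KA 2 and 7.87 on KA/KA 3 against 4.65 on WT 2. Both KA/KA arrays were far above WT 2, where the signal was near the floor, and the difference was 3.07 ± 0.43 (± SE, 2 arrays against 1, limma adjusted p = 0.886). Ccr1 read 11.11 and 10.11 on the KA/KA arrays against 7.69 on WT 2, a difference of 2.92 ± 0.52, and its other probe set gave 2.46 ± 0.48. Cxcr2 read 7.14 and 8.42 against 5.74, with 2.04 ± 0.69. In each case both KA/KA arrays were higher, and the adjusted p was 0.886.

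Ccr2 was the exception among myeloid receptors. Its probe set of highest mean read 7.80 and 7.88 on the KA/KA arrays against 7.60 on WT 2, a difference of 0.24 ± 0.35 (limma adjusted p = 0.959). The other 3 probe sets gave 0.30 (1421187_at), -0.40 (1421188_at) and -0.57 (1460067_at). Their signs differed, so no direction can be given for Ccr2.

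Of the lymphoid receptors, Cxcr4 read 11.57 and 11.71 on the KA/KA arrays against 10.73 on WT 2. The KA/KA arrays were close to each other, and the difference was 0.91 ± 0.27 (limma adjusted p = 0.886). For the other lymphoid receptors the higher mean came mostly from KA/KA 3. Ccr7 differed from WT 2 by -0.049 on KA/KA 2 and by 2.27 on KA/KA 3, and Cxcr5 by 0.096 and 1.47. Cxcr3 differed by 0.12 and 1.15, and Ccr6 by -0.47 and 0.75. Across the 9 receptors KA/KA 3 exceeded KA/KA 2 in 8, by a median of 1.03, which is larger than the median difference of 0.91 between the genotypes. Ccr1 was lower on KA/KA 3 (-0.997). Over all genes the median difference between these arrays was 0.023.

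Markers of some leukocytes moved with the lung-like differences, and those of others did not. Of all probe sets 32.0% were above WT 2 on both KA/KA arrays and 35.6% below on both. All 9 monocyte and macrophage markers were above WT 2 on both KA/KA arrays, with summed signals of 89075.8 and 68106.5 against 29042.8. All 8 T cell markers were too (4230 and 9989 against 2049). All 4 eosinophil markers were (937 and 1115 against 601), as were 6 of 9 neutrophil markers (33574 and 73558 against 6340). Of 7 mature B markers 3 were above WT 2 on both (sums of 4065 and 6634 against 2832), with 0 below on both. Of 9 B-lineage markers 3 were above and 3 below on both (median -0.14), with sums of 4171 and 4329 against 1991, in which Blnk, an adaptor of B cell receptor signalling, was 2.04 higher on the log2 scale. NK cell markers, of which 6 were measured, had 2 above and 2 below on both (1382 and 2070 against 2081), and 7 dendritic cell markers had 3 above and 2 below (9107 and 8078 against 3171). Lung epithelium markers were above WT 2 on both arrays for 6 of 9 (173801 and 185500 against 118326). Endothelium markers were above for 0 of 8, with 6 below on both (12341 and 35703 against 42955). Rag1 was near the floor on all 3 arrays. The neutrophil markers did not move together. Elane was dim (4.83 and 5.09 against 5.08). S100a9 (13.81 and 14.87 against 10.67) and Mmp8 (9.72 and 10.53 against 7.04) were higher on both KA/KA arrays, and 1 of the 9 was lower on both. The part of these cells in the receptor differences was not tested.

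**Figure D3:**
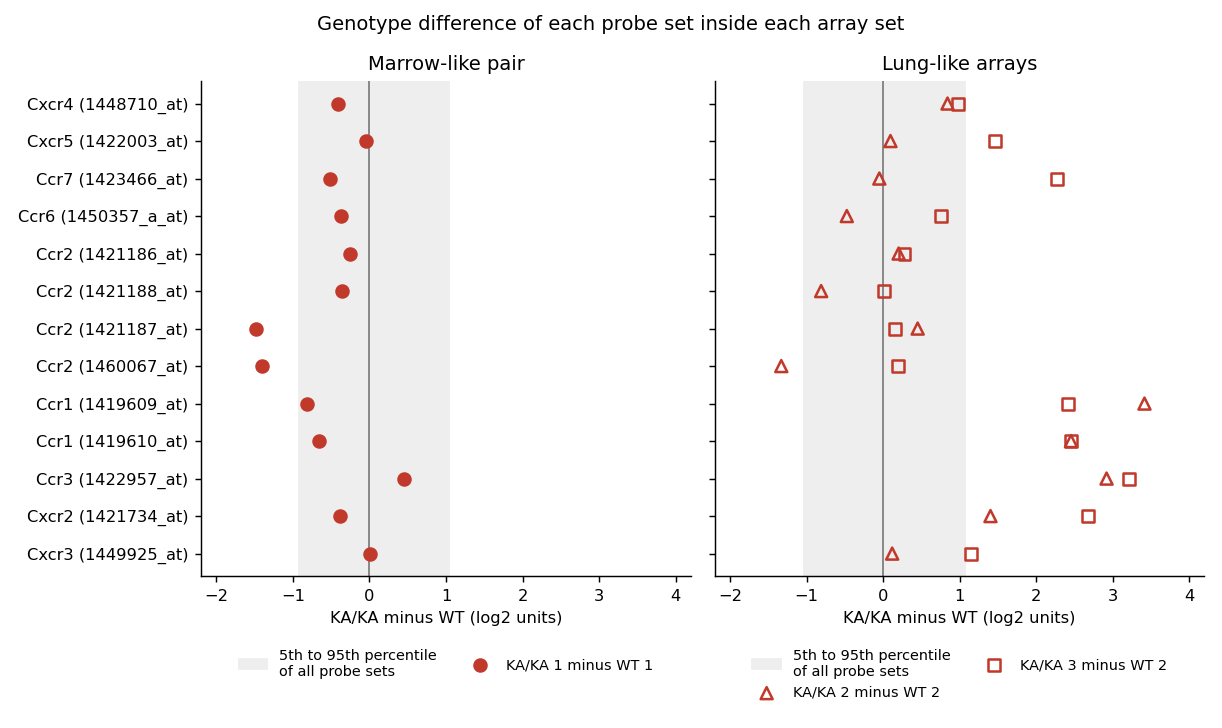
Difference between KA/KA and WT of each receptor probe set, in log2 units, inside the marrow-like pair (left) and the lung-like arrays (right, each KA/KA array minus WT 2); the grey bands hold the 5th to 95th percentile of all probe sets, on the right for the mean of both KA/KA arrays. On the left 11 of 13 points are below 0, and on the right the Ccr1, Ccr3 and Cxcr2 points of both KA/KA arrays lie beyond the band.

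**Figure D4:**
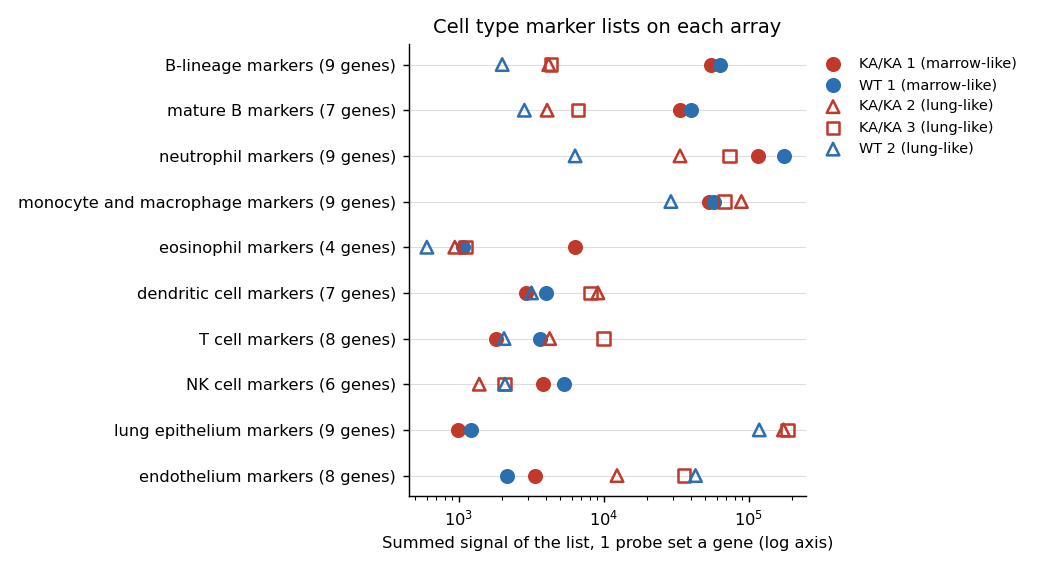
Summed signal of each cell type marker list on each array (log axis, 1 probe set a gene). Filled points are the marrow-like pair and open points the lung-like arrays. Every list except NK cell and endothelium markers is lower on WT 2 than on KA/KA 2 and KA/KA 3.

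The sign of the genotype difference was thus opposite in the sets for several probe sets, whatever its size. In 7 of 13 probe sets KA/KA 1 was below WT 1 while both lung-like KA/KA arrays were above WT 2, against 16.9% of all probe sets. These were both Ccr1 probe sets, 2 of Ccr2 (1421186_at and 1421187_at), Cxcr2, Cxcr4 and Cxcr5. On the lung-like arrays the Ccr2 probe sets shared no direction. Cxcr5 differed by only -0.046 in the marrow-like pair, and from WT 2 by 0.096 on KA/KA 2 and 1.47 on KA/KA 3. The interaction of genotype and set was -3.74 ± 0.79 for Ccr1, -2.42 ± 1.05 for Cxcr2 and -1.32 ± 0.42 for Cxcr4 (marrow-like minus lung-like, limma), with adjusted p = 0.893 for each. No probe set passed this test, with 0.0% called, 4 receptor probe sets and 2093 in all at an unadjusted p under 0.05. The 4 receptor probe sets were the 2 of Ccr1, that of Ccr3 (-2.62 ± 0.66) and that of Cxcr4. As none passed, a difference between the sets in how genotype acts on these receptors was not shown.

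Over all 5 arrays with the set as a block, no receptor passed, and 0.0% of all probe sets did (1439 at an unadjusted p under 0.05). Ccr3 had the largest difference, 1.94 ± 0.61 (KA/KA minus WT, ± SE, 3 against 2 arrays, limma adjusted p = 0.9997), and was the only receptor at an unadjusted p under 0.05. Ccr3 and Cxcr3 were the receptors with each KA/KA array above the WT array of its set. No receptor had all 3 KA/KA arrays above both WT arrays or all below, where 5.33% and 4.95% of all probe sets did. Ccr1 (1.32 ± 0.82) and Cxcr2 (1.00 ± 0.66) followed. Because WT 2 was near the floor, the Ccr3 value depended on the added constant: it was 2.64 with a constant of 1 and 1.22 with 64, where Ccr1 had 1.36 and 1.20. Without KA/KA 1 or without WT 1, only the lung-like arrays hold both genotypes, and the Ccr3 difference was that inside them, 3.07. Without WT 2 only the marrow-like pair does. The differences were then those of that pair: 0.45 for Ccr3, -0.82 for Ccr1 and -0.38 for Cxcr2. With all 5 arrays Cxcr4 stood at 0.35 ± 0.37, Cxcr5 at 0.43 ± 0.47, Ccr7 at 0.41 ± 0.73, Cxcr3 at 0.37 ± 0.39, Ccr6 at -0.078 ± 0.42 and Ccr2 at 0.030 ± 0.28. Each of these was smaller than its SE. The Ccr2 value is that of its probe set of highest mean. Its other probe sets gave -0.46 ± 0.49 (1421187_at), -0.38 ± 0.34 (1421188_at) and -0.93 ± 0.56 (1460067_at), and 1421188_at and 1460067_at exceeded their SE. Without the block, the comparison of the labels, 0.0% of probe sets passed as well (568 at an unadjusted p under 0.05, 0 of them receptors), with Ccr3 at 1.49 ± 1.34 and Cxcr4 at 0.019 ± 0.92.

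Other chemokine receptors split between the sets in both directions. Of 12 measured, 2 passed as higher in the marrow-like pair and 3 as lower (median -0.71), where 8.38% and 15.1% of all genes did. Ccr9, which guides lymphocyte precursors and plasmacytoid dendritic cells, read 10.67 and 11.27 in the marrow-like pair against 8.26, 6.82 and 6.84 on the lung-like arrays (3.69 ± 0.52, limma adjusted p = 0.00626). Ccr10, a receptor of plasma cells and skin T cells, was also higher (1.82 ± 0.44). Of 4 measured scavenging (atypical) receptors 2 passed, both lower in the marrow-like pair, and Ackr1 (0.47 ± 0.52) and Ackr4 (0.17 ± 0.34), named after their values were seen, did not. Ackr3, which removes Cxcl12 and so competes with Cxcr4, read 5.9997 and 5.37 in the marrow-like pair against 10.71, 10.76 and 11.25 (-5.23 ± 0.33, limma adjusted p = 0.000949). Ackr2, a scavenger of inflammatory CC chemokines, had -4.36 ± 0.43, and Ccrl2, which presents chemerin, had -2.83 ± 0.42. Between the genotypes with the set as a block, 0 of the 12 passed.

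Of 22 measured ligands of the 9 receptors, 4 passed as lower in the marrow-like pair, 1 as higher, and 17 did not pass (median -1.86). Over all genes 15.1% passed as lower and 8.38% as higher. Ccl11, the main ligand of Ccr3, read 4.28 and 4.27 in the marrow-like pair against 11.70, 9.71 and 7.42 on the lung-like arrays (-5.02 ± 0.89, limma adjusted p = 0.0130). Ccl11 was thus near the floor on the arrays where Ccr3 was highest. Ccl6 (-2.71 ± 0.46), Cxcl13, the ligand of Cxcr5 (-2.43 ± 0.27), and Cxcl1, a ligand of Cxcr2 (-1.96 ± 0.48), were lower in the marrow-like pair, and Cxcl9, a ligand of Cxcr3, was higher (2.10 ± 0.50). Cxcl12, the ligand of Cxcr4, read 12.21 and 12.82 against 11.61, 10.68 and 11.68 and did not pass (1.10 ± 0.35, limma adjusted p = 0.0811). Cxcl12 was chosen here after its values were seen.

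Inside the lung-like arrays 17 of the 22 ligands were above WT 2 on both KA/KA arrays, where 32.0% of all probe sets were. The median difference was 2.18 log2 units, and 0 passed limma's test. Ccl11 read 11.70 and 9.71 on the KA/KA arrays against 7.42 on WT 2, so ligand and receptor Ccr3 were both higher there. Cxcl13 was almost level (9.36 and 9.38 against 9.09). In the marrow-like pair 10 of 22 ligands were lower on KA/KA 1 and 12 higher (median 0.027).

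**Figure D5:**
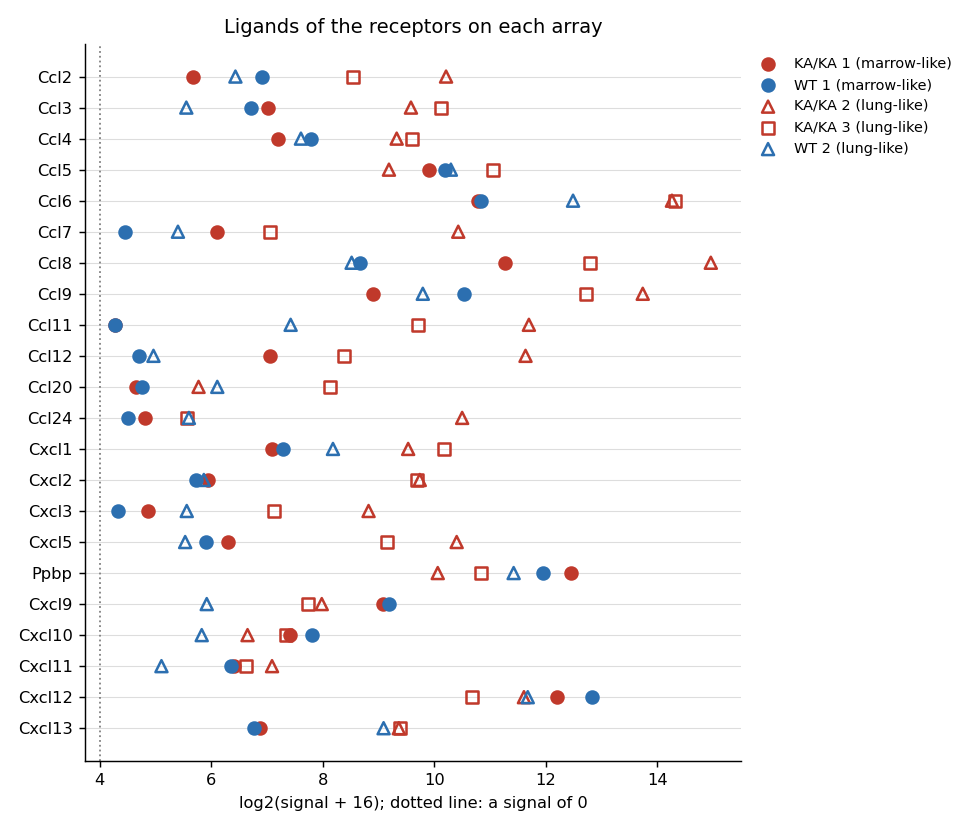
Value of each of the 22 measured ligands on each array, as log2(signal + 16); filled points are the marrow-like pair, open points the lung-like arrays, red KA/KA and blue WT. Ccl11, Ccl6 and Cxcl13 are higher on all 3 lung-like arrays, and for 17 ligands both open red points lie to the right of the open blue one.

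Of 19 measured genes that carry or end the receptor signal, 7 passed as higher in the marrow-like pair and 2 as lower (median 0.38). Over all genes 8.38% passed as higher and 15.1% as lower. Rgs18 (2.68 ± 0.39) and Rgs13 (2.27 ± 0.42), which speed the shut-off of G proteins, were higher there, as were Rac2, the small GTPase of leukocyte movement (2.07 ± 0.45), Dock2, which activates it (1.75 ± 0.41), and Grk6, a kinase that desensitises Cxcr4 (1.85 ± 0.35). Grk5, a kinase of the same family, was lower (-2.42 ± 0.37). Inside the lung-like arrays 13 of 19 were above WT 2 on both KA/KA arrays and 4 below on both, and 0 passed. Of all probe sets 32.0% were above on both and 35.6% below on both.

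The genes with the most similar profile over the 5 arrays were found by the distance between values centred on each probe set's mean, for the 7 receptors with a difference between the set means of at least 1. They were picked by likeness and get no test. Nearest to Cxcr4 were Ptpn6, the leukocyte phosphatase SHP-1 (distance 0.16 log2 units), Jpt1 (0.20) and 1700037H04Rik (0.20). Ptpn6 read 12.39 and 12.71 in the marrow-like pair against 10.73, 10.99 and 9.91. Nearest to Cxcr5 were Agt (0.24), Gpr18 (0.29), a receptor of lymphocytes, and Rcsd1 (0.33). The nearest were Dkkl1 for Ccr2 (0.15), Tcf4 for Ccr6 (0.14), Gm34006 for Cxcr2 (0.42) and Taf15 for Ccr7 (0.42). Ccr3 had no close neighbour, the nearest being 1700097N02Rik at 0.81. Tcf4, Taf15, Dkkl1 and Rcsd1 were read here by dim probe sets, with values of 7.05 or less on every array. Agt was dim on the lung-like arrays, at 6.23 or less.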

How the data were processed

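The authors deposited 1 table of signal intensities for 45101 probe sets on 5 arrays. MAS5 is named, without a version, per the submitters' processing notes; the series text speaks of normalisation and log2 values, but the deposited values are linear, with a mean of 500 per array after 2% is trimmed from each end. Labelling started from 150 ng RNA, per the labels' protocols. Detection calls were not used here, so dim values carry no call, and the number of arrays limits precision. Array medians ran from 6.80 to 7.17 on the log2(signal + 16) scale.

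The 64 control probe sets were left out, and no filter on dim probe sets was applied, so that every receptor probe set was tested; 11 of the 13, from all 9 genes, lay at or above the median level. limma 3.58.1 (R 4.3.3; lmFit, eBayes with an intensity trend, two-sided, Benjamini-Hochberg over all 45037 probe sets, threshold 0.05) fitted genotype plus array set, genotype alone, and a mean for each genotype in each set. The script was tested on simulated data. Symbols came from the platform annotation: 34945 probe sets had 1 symbol and 932 several, which were left unnamed. Where 1 value a gene was needed, the probe set with the highest mean over the arrays was taken. Listed genes without such a probe set were not analysed here. All probe sets of the 9 receptors are named; of other lists, at most 6 genes, those of largest difference among the called ones; marker genes named beside a result were chosen after their values were seen. For a receptor with a difference of at least 1 log2 unit between sets, the nearest profiles were listed. The receptors, lists and array sets were chosen with earlier results of these data known. Alternatives covered the added constant, scaling, filters, eBayes settings, array weights, the replicate number and leaving out each array.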

Additional observations from a re-analysis of the deposited data

How the results depend on the processing

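Over the 10 settings that changed scaling, the added constant, filters, the features tested or the eBayes fit, and with the set term alone, 4 to 6 receptor probe sets passed between the array sets, against 5 as reported. Leaving out 1 array gave 0 to 8 of them, and 525 to 9428 probe sets in all, against 8689. Without KA/KA 1 or WT 1 the marrow-like pair is 1 array, assumed to vary like the others. With 1 probe set a gene after the filter, 4064 of 11392 genes passed. Median centring raised every difference between sets by 0.35 log2 units and moved the share of calls that were higher in the marrow-like pair to 62.7%, against 41.5% as reported and 50.6% after quantile normalization. Between genotypes 0 probe sets passed in the fits run, except that with the set as a block leaving out 1 array gave 0 to 2 and that the replicate block gave 2, and 0 of these calls were receptors. The labels give these arrays only a shared number. Deviations from the genotype means correlated across probe sets at 0.790 for KA/KA 1 with WT 1 and 0.516 for KA/KA 2 with WT 2. The correlation of KA/KA 3 with WT 2, which do not share a number, was higher at 0.645. With 2 WT arrays the deviations of one mirror those of the other, and the numbers coincide with the array sets. These values therefore cannot show that equal numbers mark pairs. Inside the lung-like arrays, leaving out KA/KA 2 or KA/KA 3 left no residual degree of freedom and leaving out WT 2 left no WT array, and for the interaction no array could be left out. Differences between sets that turned sign were those of Ccr1 (1419610_at 0.094 with a constant of 1, 0.30 after quantile normalization and 0.34 after median centring; 1419609_at 0.21 after median centring) and of Ccr2 1460067_at (0.34 after quantile normalization, 0.35 after median centring and 0.15 with the set term alone). Between genotypes, Ccr2 1421186_at (-0.025) and Ccr7 (-0.29) turned under the replicate block and Ccr6 (0.023) with array weights. Leaving out 1 array, differences between sets ran from -1.75 to 1.99 for Ccr1 1419609_at, -1.35 to 1.77 for 1419610_at and -0.36 to 0.47 for Ccr2 1460067_at. Those between genotypes ran from -0.82 to 2.92 for Ccr1 1419609_at, -0.67 to 2.46 for 1419610_at, -0.25 to 0.24 for Ccr2 1421186_at, -1.48 to 0.30 for 1421187_at, -0.38 to 2.04 for Cxcr2, -0.046 to 0.78 for Cxcr5, -0.52 to 1.11 for Ccr7, -0.41 to 0.91 for Cxcr4 and -0.42 to 0.19 for Ccr6. Without KA/KA 1, WT 1 or WT 2, a genotype difference is that inside 1 array set, and a set difference that inside 1 genotype. Several ends of these ranges thus repeat such differences. The cause was not tested.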
